A study of Homo sapiens with 4 samples.

Results

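CD69, CRTAM and CD83 are surface proteins that appear on lymphocytes soon after activation, and their transcripts were followed here across 4 arrays of the established human leukaemia line Jurkat, which is of T cell origin. The 3 genes were chosen by name, in part because the signal of CRTAM was much higher after stimulation to nearly the same extent in both lines, so their stimulation values are a description and carry no test. Each gene had 1 probe set with that single symbol in the platform annotation, and all 3 were among the 13717 genes past the filter on low signals, of 19775 genes with a probe set of their own.

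The 4 groups had 1 array each. They were the line with a short hairpin RNA against IKBKE (the shIKKE line) with stimulation, the vector line (called the control line) with stimulation, the shIKKE line with solvent and the control line with solvent. Stimulation was 3 h of 10 ng/ml PMA, which activates protein kinase C, with 0.5 uM ionomycin, which lets calcium into the cell. The labels do not say whether a line is 1 clone, which hairpin sequence was used or whether the samples came from separate cultures, and no difference below has a replicate check or a p-value.

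CD69 is a C-type lectin-like protein that forms dimers at the cell surface and is among the earliest markers of lymphocyte activation. It binds the sphingosine phosphate receptor S1PR1 and takes it off the surface, which holds activated lymphocytes in lymphoid tissue. CRTAM is an immunoglobulin-family receptor of activated T and NK cells that binds the adhesion molecule CADM1 on other cells. CD83 is an immunoglobulin-family protein best known from mature dendritic cells and is also made by activated lymphocytes, and it protects MHC class II and CD86 from removal by the ubiquitin ligase MARCHF1.

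Signals are MAS5 values on a linear scale, scaled to one trimmed mean on the 4 arrays. The median signal was 69.1 and 59.8 on the stimulated arrays of the shIKKE and control lines, against 49.7 and 48.8 on their solvent arrays. The ratio of 5′ over 3′ signal falls with RNA degradation. For the ACTB control probe sets it was 0.266 and 0.401 on the stimulated arrays of the shIKKE and control lines. On their solvent arrays it was 0.339 and 0.244, so the highest and the lowest were both in the control line. The GAPDH control probe sets gave ratios between 1.04 and 1.17. All 12 listed T cell markers were measured, with summed signals from 73237 to 81115 on the 4 arrays. The brightest members make up most of these sums. In the control line CD2 read 760 with stimulation and 1976 with solvent, and LAT 10071 and 3713. In the shIKKE line CD2 read 353 and 500, and LAT 6522 and 4102. The other 10 markers stayed within 2-fold with stimulation in the control line, and all 12 in the shIKKE line. The brighter of 2 IKBKE probe sets read 248 in the shIKKE line and 520 in the control line with stimulation, and 180 and 340 with solvent. The dimmer one read 280 and 311 with stimulation and 287 and 218 with solvent, so with solvent the probe sets went opposite ways.

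CD69 read 20144 on the stimulated array of the shIKKE line and 428 on its solvent array. In the control line it read 14797 with stimulation and 1425 with solvent. Both stimulated arrays lay far above both solvent arrays, and the lowest of the 4 values was that of the shIKKE line with solvent. The signal ratio of stimulated over solvent was 47.0 in the shIKKE line and 10.4 in the control line. On the scale used for all genes, log2 of the signal plus 14.1, these differences were 5.51 and 3.36, and the added constant makes the fold of a dim gene smaller. Arrays of whole cultures cannot tell more cells with a transcript from more transcript per cell. With stimulation CD69 was brighter than 99.5% of all probe sets on the shIKKE array and 99.1% on the control array, and with solvent it was brighter than 76.5% and 87.8%.

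CRTAM read 2965 with stimulation and 17.2 with solvent in the shIKKE line. In the control line it read 2932 with stimulation and 15.5 with solvent. The values of the lines were close together in each treatment, while the treatments were far apart. The log2 difference of stimulated over solvent was 6.58 in the shIKKE line and 6.64 in the control line. Both solvent readings were dim, brighter than only 29.1% and 28.8% of the probe sets of their arrays, so the size of the fold change depends on how dim signals are handled. Raised to the median of its solvent array, the baseline gave signal ratios of 59.7 in the shIKKE line and 60.1 in the control line, where the readings as deposited gave 173 and 189.

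CD83 read 15304 with stimulation and 1126 with solvent in the shIKKE line. In the control line it read 13048 with stimulation and 1916 with solvent. As for CD69, both stimulated arrays were above both solvent arrays and the shIKKE line with solvent had the lowest value. The signal ratio was 13.6 in the shIKKE line and 6.81 in the control line, and the log2 differences were 3.75 and 2.76. CD83 already stood well above the median signal with solvent, brighter than 85.8% of probe sets in the shIKKE line and 90.4% in the control line.

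**Figure D1:**
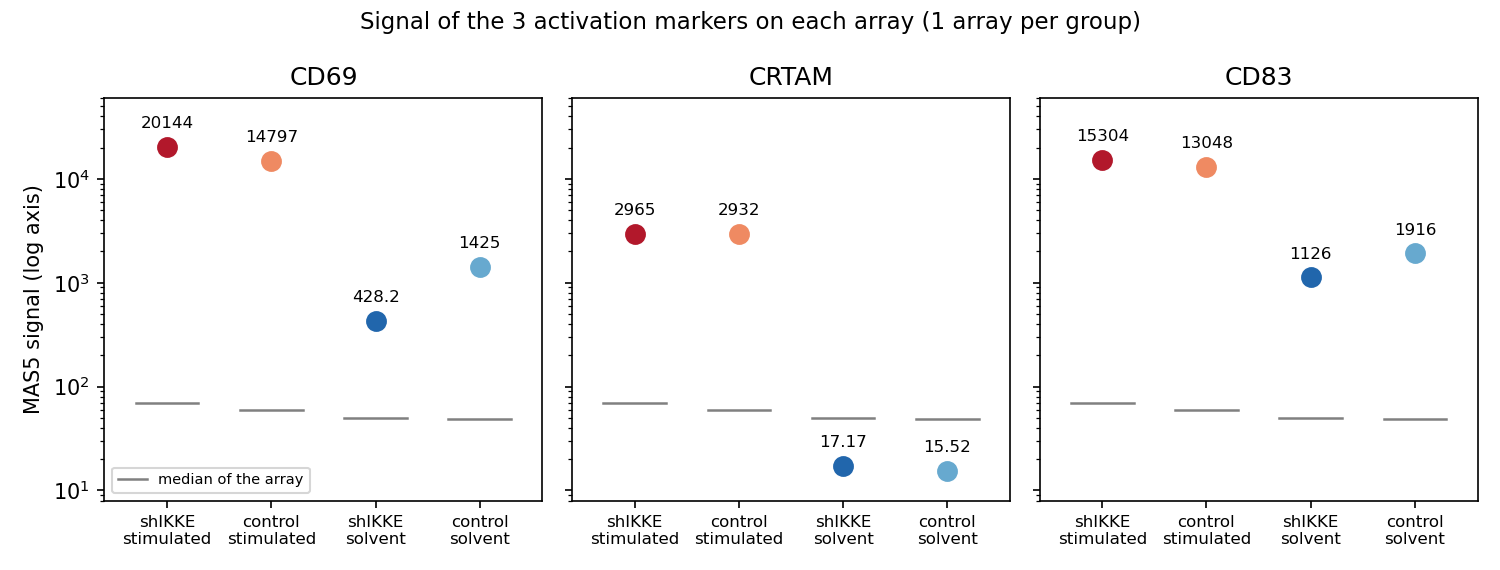
MAS5 signal (log axis) of CD69, CRTAM and CD83 on each of the 4 arrays, 1 point per array, with a grey bar at the median signal of that array. Each gene is higher on both stimulated arrays than on both solvent arrays, and CRTAM with solvent (17.2 in the shIKKE line, 15.5 in the control line) gave the only readings below the median of their arrays.

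With stimulation 10.3% of all genes reached a 2-fold increase in the shIKKE line, 7.57% in the control line and 3.29% in both, and all 3 activation markers were among those in both. A 2-fold decrease was reached by 2.68% in the shIKKE line and 6.44% in the control line, and by none of the 3. The genes were partly chosen on this contrast, so nothing is read from that count. In the shIKKE line 1417 genes were higher and 368 lower, or 1017 and 688 after quantile normalization. In the control line 1039 were higher and 884 lower, or 839 and 1121 after quantile normalization and 809 and 1238 with each array centred on its median. By size of increase CD69 stood at places 11 and 24 of 13717 in the shIKKE and control lines and CD83 at places 35 and 61. CRTAM is given no place, since its solvent readings were too dim to fix the size of its increase.

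**Figure D2:**
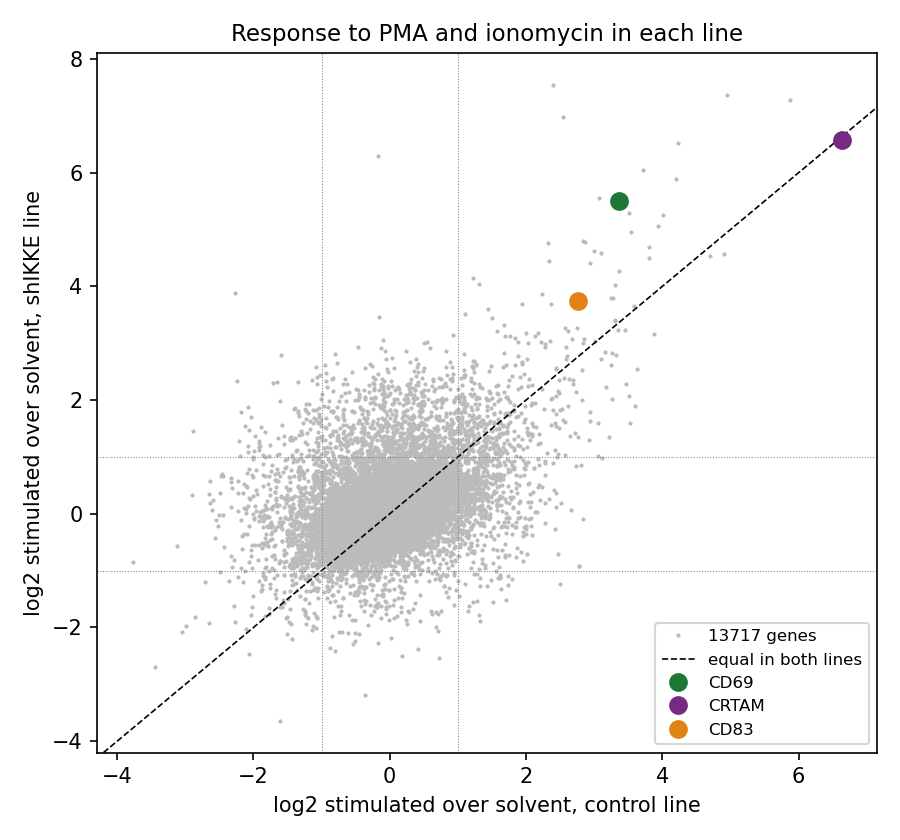
Log2 difference of stimulated over solvent for 13717 genes (grey), in the control line on the x axis and the shIKKE line on the y axis, with dotted lines at 2-fold and a dashed line where both lines are equal. CRTAM (6.58 in the shIKKE line, 6.64 in the control line) lies on the dashed line, and CD69 (5.51 and 3.36) and CD83 (3.75 and 2.76) lie above it.

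The comparison of the shIKKE line with the control line asks how the hairpin line differs with and without stimulation. With stimulation the 3 genes read close to each other in the 2 lines, with log2 differences of shIKKE over control of 0.44 for CD69, 0.02 for CRTAM and 0.23 for CD83. All 3 lay within 2-fold, where 5.99% of genes reached a 2-fold higher and 2.37% a 2-fold lower signal. With solvent CD69 was lower in the shIKKE line by a log2 difference of -1.70, and CD83 by -0.76, which is within 2-fold. CRTAM differed by 0.08 there, between 2 dim readings. With solvent 4.34% of genes reached a 2-fold higher and 6.68% a 2-fold lower signal, and 1.64% had a difference as low as that of CD69.

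The response of CD69 was larger in the shIKKE line than in the control line by 2.15 on the log2 scale, a ratio of 4.43. Without the added constant, the ratio of the lines' signal ratios was 4.53. By arithmetic, 79.3% of the difference of 2.15 came from the solvent arrays, where the shIKKE line was lower, and 20.7% from the stimulated arrays. The response of CD83 was larger by 0.99, just inside 2-fold, of which 76.8% came from the solvent arrays. With the solvent arrays exchanged between the lines, the responses in the shIKKE and control lines were 3.81 and 5.07 for CD69 and 2.99 and 3.52 for CD83. For CRTAM the responses differed by -0.06. Among all genes 11.4% had a response 2-fold or more above that of the control line and 4.67% one 2-fold or more below it. The solvent array of the control line enters both the response of that line and the solvent comparison of the lines, so the responses and the line differences are not separate observations.

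**Figure D3:**
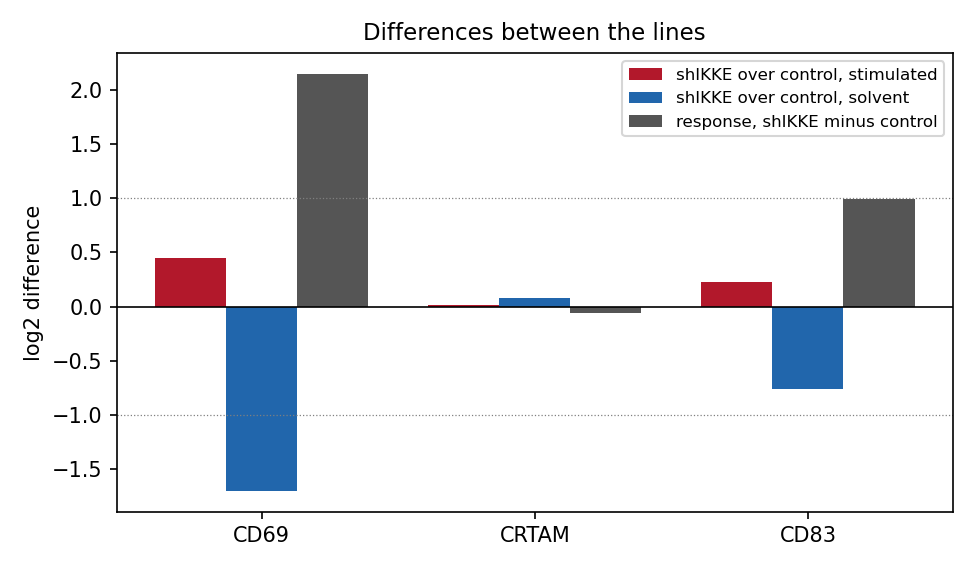
Log2 difference of the shIKKE over the control line with stimulation (red) and with solvent (blue), and of the response of the shIKKE line minus that of the control line (grey), for each gene. Dotted lines mark 2-fold. CD69 has a solvent difference of -1.70 and a response difference of 2.15, CD83 has -0.76 and 0.99, and the bars of CRTAM lie between -0.06 and 0.08.

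The genes with the most similar course over the 4 arrays were found by the Euclidean distance between log2 values centred on each gene's own mean, which is a description over 4 arrays. Nearest to CD69 were IER3 (distance 0.70), TMEM88 (0.70), NAB2 (0.92), ARC (0.97) and PLAU (1.01), where CD69 itself lies 4.61 from a flat course. IER3, an early response gene, read 22167 with stimulation and 460 with solvent in the shIKKE line, against 23106 and 2726 in the control line. NAB2, which encodes a corepressor of EGR factors, read 4843 and 214 in the shIKKE line, against 5947 and 763 in the control line. Like CD69, both had their lowest reading in the shIKKE line with solvent. The nearest genes were the same 5 after quantile normalization.

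Nearest to CRTAM were TNFSF14 (0.81), CCL4 (1.60), ARC (1.76), LTB (1.87) and XCL1 (1.94), with CRTAM at 6.61 from a flat course, and these were again the nearest 5 after quantile normalization. TNFSF14, a TNF family ligand, read 2807 with stimulation and 4.1 with solvent in the shIKKE line, against 1303 and 8.4 in the control line. LTB, which encodes lymphotoxin beta, read 11128 and 453 in the shIKKE line, against 10988 and 352 in the control line. Of these 5, LTB alone had a response within 2-fold between the lines (-0.33), and that of the other 4 was larger in the shIKKE line by 1.41 to 2.41. A dimmer LTB probe set changed little with stimulation, by 0.19 in the shIKKE line and -0.07 in the control line.

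Nearest to CD83 were SLC32A1 (0.37), C5AR1 (0.42), LOC101927166 (0.43), PRSS30P (0.54) and UEVLD (0.55), with CD83 at 3.30 from a flat course. These genes were dim, with solvent readings of 3.7 to 17.6 in the shIKKE line and 9.6 to 26.7 in the control line, and 3 of the 5 stayed nearest after quantile normalization. Among the activation markers themselves, CD69 and CD83 were closest (1.37), CD69 and CRTAM were 2.53 apart and CRTAM and CD83 were 3.41 apart.

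**Figure D4:**
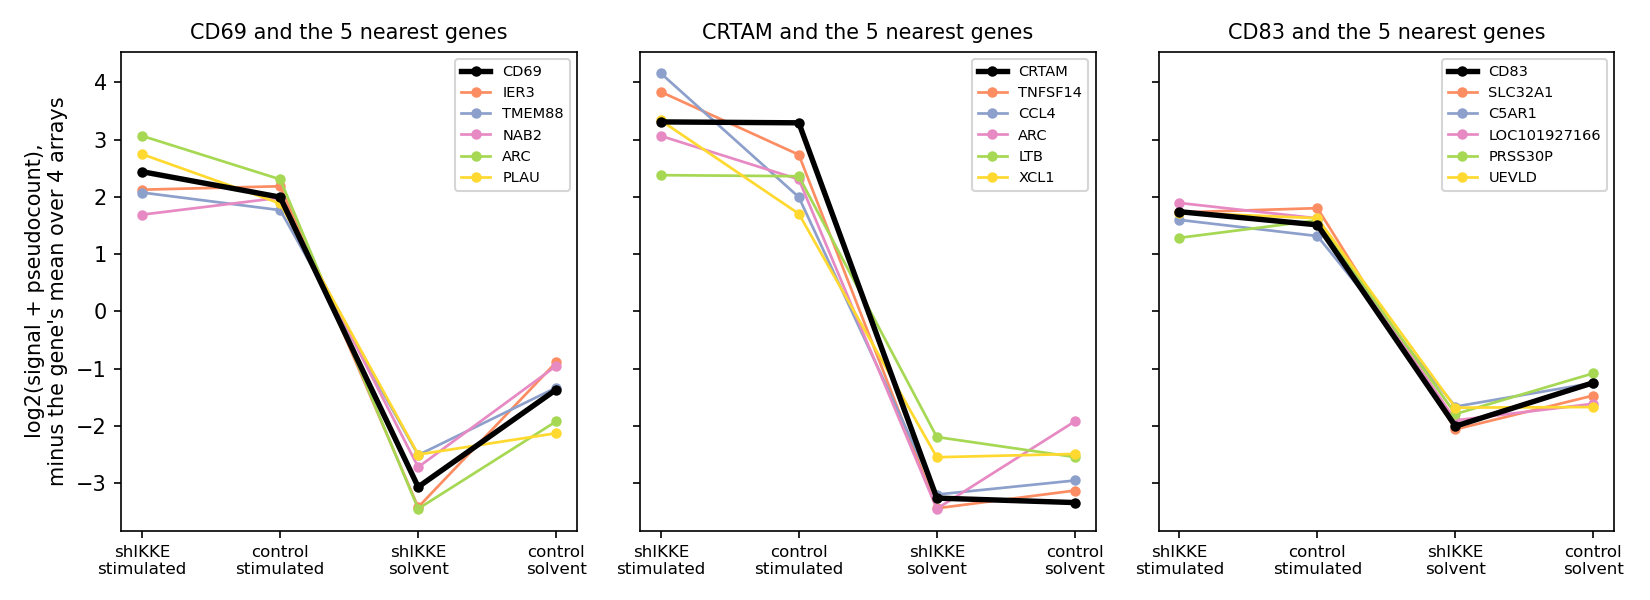
Log2 of the signal plus 14.1, minus each gene's mean over the 4 arrays, for each activation marker (black) and its 5 nearest genes (colours), with lines joining the arrays only to guide the eye. CD69 and its nearest genes have a lower value in the shIKKE line than in the control line with solvent, and CRTAM and CD83 have nearest genes at distances from 0.81 to 1.94 and from 0.37 to 0.55.

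Of 12 listed ligands and partners of CD69 8 were measured, and with stimulation none was at least 2-fold changed in the shIKKE line (1 after quantile normalization), where 10.3% of all genes were higher and 2.68% lower. Their median log2 difference there was -0.29 against -0.01 over all genes. In the control line 2 were higher and 1 was lower, where 7.57% of all genes were higher and 6.44% lower, with a median of -0.36 against -0.07 over all genes. Nothing is read from counts this small. S1PR1, the receptor that CD69 takes off the cell surface, read 226 with stimulation and 354 with solvent in the shIKKE line, against 147 and 184 in the control line. It was lower with stimulation in both lines and within 2-fold (log2 -0.62 and -0.30). KLF2, which encodes an activator of S1PR1 transcription, read 1027 and 1392 in the shIKKE line, against 1890 and 913 in the control line, a log2 difference of -0.43 and 1.04. A second KLF2 probe set, at most 41.7, was higher with stimulation in both lines (1.42 and 0.74). LGALS1, which encodes the CD69 ligand galectin-1, was lower with stimulation in the control line, at 414 against 1117 with solvent, and read 531 and 589 in the shIKKE line. SLC7A5, the amino acid transporter subunit that has been reported with CD69, read 13967 and 7177 in the shIKKE line and 13404 and 6199 in the control line (log2 0.96 and 1.11).

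CD69 lies in the NK gene complex of chromosome 12, beside other lectin-like receptor genes, in the RefSeq table of GRCh38.p14. Of the 5 nearest protein-coding genes on each side, 5 of 10 were past the filter. CLEC2B, a close relative of CD69, was the brightest of these and read 4414 with stimulation and 2159 with solvent in the shIKKE line, against 2802 and 2404 in the control line (log2 1.03 and 0.22). The other 4, CLEC2D, PZP, A2M and CLEC12A, stayed at or below 75.1 on every array. Of 20 listed lectin-like receptor genes of the complex only 5 were measured, and with stimulation 1 was higher and 1 lower by 2-fold or more in the shIKKE line, against 2 higher and none lower in the control line. Over all genes 10.3% were higher and 2.68% lower in the shIKKE line and 7.57% and 6.44% in the control line, and with a pseudocount of 100 none of the 5 receptors reached 2-fold in either line. KLRB1 and KLRF1, next to CD69 and its neighbours, stayed below the filter, at most 11.1 and 45.6.

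CADM1, the ligand of CRTAM, was measured in Jurkat cells themselves. Its brightest probe set read 855 with stimulation and 584 with solvent in the shIKKE line, against 688 and 817 in the control line (log2 0.54 and -0.24), and 5 dimmer probe sets gave differences from -0.68 to 0.95 in the shIKKE line and from -0.78 to 0.11 in the control line. Of 14 listed genes of the nectin and nectin-like family, their receptors and SCRIB, 10 were measured, and none was at least 2-fold changed with stimulation in the shIKKE line. In the control line 1 was higher, CADM3 (102 with stimulation, 24.4 with solvent), and 2 were lower, NECTIN1 (28.6 and 133) and NECTIN3 (133 and 314, but higher by a dimmer probe set). With a pseudocount of 100 none of these 3 reached 2-fold. The median was 0.04 in the shIKKE line and -0.03 in the control line, against -0.01 and -0.07 over all genes, and the counts of 0 and 3 of 10 stand beside the 10.3% higher and 2.68% lower of all genes in the shIKKE line and the 7.57% and 6.44% in the control line. SCRIB, a polarity protein that binds the CRTAM tail, read 1702 and 1414 in the shIKKE line, against 1919 and 1373 in the control line. On chromosome 11, 6 of the 10 nearest protein-coding genes of CRTAM were past the filter, and with stimulation 1 was at least 2-fold changed in the shIKKE line, the dim gene TECTA (39.1 and 7.3), and 0 in the control line. UBASH3B, the neighbour before CRTAM, read 804 and 833 in the shIKKE line, against 1063 and 1481 in the control line.

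The antigen presentation genes on which CD83 acts in dendritic and B cells were mostly at low signal. Of 12 listed, 7 were measured, and MARCHF1, CD86, CD80 and HLA-DRA stayed below the filter, with readings of at most 38.4, 54.8, 53.0 and 30.7. With stimulation 3 reached a 2-fold increase in the shIKKE line and 0 in the control line, with medians of 0.49 and -0.30 against -0.01 and -0.07 over all genes. The shares of all genes were 10.3% and 7.57%, and with a pseudocount of 100 none of the 7 reached 2-fold. The 3 were HLA-DRB1 (67.6 with stimulation, 2.5 with solvent), CD74 (84.6 and 23.3) and CIITA (62.6 and 19.2), each at no more than 84.6, and the lowest values by dimmer probe sets of CD74 and CIITA were -0.32 and -1.36. MARCHF8, a relative of MARCHF1, read 863 and 1138 in the shIKKE line, against 877 and 1080 in the control line. On chromosome 6, 9 of the 10 nearest protein-coding genes of CD83 were past the filter. With stimulation 1 was at least 2-fold changed in the shIKKE line, ATXN1 (201 and 73.8), and 1 in the control line, MYLIP (43.4 and 267). Over all genes 10.3% were higher and 2.68% lower in the shIKKE line, and 7.57% and 6.44% in the control line. The 4 dimmer ATXN1 probe sets gave -0.51 to 1.65 in the shIKKE line and -0.13 to 1.56 in the control line. Some were over 2-fold higher in the control line, so the call of ATXN1 in 1 line depends on the probe set. Dimmer MYLIP probe sets gave -1.98 to 0.17 in the shIKKE line and -1.65 to 0.13 in the control line. Some of them were over 2-fold lower in both lines, so the call of MYLIP in 1 line depends on the probe set. RNF182 and JARID2, on either side of CD83, differed by -0.24 and 0.16 in the shIKKE line and by -0.17 and -0.12 in the control line.

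The promoter table of RefSeq (GRCh38.p14) held 2 windows for CD83, each from 250 bases before a transcription start to 50 after it. They are printed because CD83 is a known target of NF-κB, some of whose subunit genes were also higher with stimulation. Capitals mark matches to the NF-κB consensus on either strand, and the windows are chr6:14117006-14117305 and chr6:14117522-14117821, both on the plus strand.
CD83 upstream start: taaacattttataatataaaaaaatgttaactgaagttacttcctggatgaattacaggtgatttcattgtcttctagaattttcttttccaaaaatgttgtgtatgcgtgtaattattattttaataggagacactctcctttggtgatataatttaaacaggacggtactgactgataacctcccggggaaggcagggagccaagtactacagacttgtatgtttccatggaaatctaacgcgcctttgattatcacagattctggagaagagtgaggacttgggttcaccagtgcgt
CD83 downstream start: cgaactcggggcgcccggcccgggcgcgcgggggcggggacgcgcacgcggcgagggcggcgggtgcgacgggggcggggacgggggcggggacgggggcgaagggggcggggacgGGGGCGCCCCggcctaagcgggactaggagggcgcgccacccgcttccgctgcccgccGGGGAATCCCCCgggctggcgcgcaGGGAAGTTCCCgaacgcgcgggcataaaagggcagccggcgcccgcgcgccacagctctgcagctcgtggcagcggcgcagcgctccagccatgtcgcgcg
The downstream window matched the NF-κB consensus at 6 positions that overlap into 3 stretches, which begin 134, 76 and 51 bases before the start, and the upstream window matched at 0. Of 35116 promoter windows, 11.3% held at least 1 such match. The EGR motif GCGNGGGCG was found at 3 positions of the downstream window and in 9.43% of all windows, and the GC box GGGCGG at 5 positions and in 45.0%. The first 2 EGR matches overlap a GC box, and no NF-κB match overlaps either motif. The AP-1 motif TGANTCA (7.71% of windows) and the CRE motif TGACGTCA (1.85%) were in neither window. The NFAT core GGAAA (61.2%) was at 3 positions of the upstream window and at 0 of the downstream one. All motifs were searched on both strands. The downstream window is 81.3% G and C, above 98.4% of windows, and the upstream one is 37% G and C, where the median window has 58.7%. These matches describe the letters only.

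Transcription factors known to act on these promoters were followed as background for the activation markers. Of 5 NF-κB subunit genes 3 reached a 2-fold increase with stimulation in the shIKKE line and 4 in the control line, with medians of 1.96 and 1.88, beside 10.3% and 7.57% of all genes. The counts differ by NFKB2, at 0.96 and 1.42 in the shIKKE and control lines. Other NFKB2 probe sets gave 2.09 and 0.83, and 1.24 and 1.33, so these counts depend on the probe set. RELB read 558 with stimulation and 47.0 with solvent in the shIKKE line, against 782 and 58.9 in the control line. REL, a subunit abundant in activated lymphocytes, read 5411 and 653 in the shIKKE line, against 5496 and 1478 in the control line. REL was thus alike in the lines with stimulation and lower in the shIKKE line with solvent (log2 -1.16), as CD69 and CD83 were. Dimmer REL probe sets gave solvent differences from -1.36 to -0.05, some of them within 2-fold. NFKB1 read 3902 and 996 in the shIKKE line, against 3586 and 806 in the control line. RELA, the partner subunit, lay within 2-fold in both lines (log2 -0.01 and -0.13).

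AP-1 and EGR genes had different responses in the lines, a difference that was not tested. Of 10 AP-1 genes 8 reached a 2-fold increase in the shIKKE line and none a decrease (median 1.99), against 2 higher and 2 lower in the control line (median 0.35), beside 10.3% higher and 2.68% lower of all genes in the shIKKE line and 7.57% and 6.44% in the control line. JUN read 5615 and 1404 in the shIKKE line, against 2721 and 5059 in the control line, and its 3 dimmer probe sets had the same directions. Other AP-1 genes did not all keep their calls. In the control line dimmer JUND probe sets gave -0.02 to 1.97, and those of FOSL2 gave -0.83 to 0.97. The dimmer ATF3 probe sets stayed within 2-fold in both lines, so the AP-1 counts depend on the probe set. All 3 measured EGR genes were higher in the shIKKE line, against 2 in the control line. EGR1 read 18503 and 1035 in the shIKKE line, against 23198 and 9953 in the control line. By the same 2-fold limit and beside the same shares of all genes, 3 of 4 NFAT genes were higher in the shIKKE line and 1 in the control line, with medians of 1.18 and 0.67, and 1 of the 4 had responses that differed by 2-fold or more between the lines. NFATC1 read 5371 and 1425 in the shIKKE line, against 2776 and 1989 in the control line. Its dimmer probe sets gave response differences from -0.21 to 1.68, some of them within 2-fold. A dimmer NFATC2 probe set was over 2-fold higher in both lines, so the NFAT counts depend on the probe set. With the median over the probe sets of each gene, 3 NFAT genes reached 2-fold in the shIKKE line and 2 in the control line. RUNX3, which encodes a factor of cytotoxic T cells, read 4152 and 848 in the shIKKE line, against 4392 and 1028 in the control line, and ZEB1 lay within 2-fold in both (log2 -0.15 and -0.20). With solvent, 4 of 10 AP-1 genes, 3 of 3 EGR genes and 1 of 5 NF-κB genes read 2-fold or more lower in the shIKKE line than in the control line, beside 6.68% of all genes, and none of them as much higher. Dimmer probe sets of JUN and EGR1 were also over 2-fold lower there. Those of EGR4 went both ways (-2.29 and 1.24), and those of ATF3 gave 0.07 and -0.37.

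Of 19 listed other surface molecules of T cell activation 14 were measured, and with stimulation 7 reached a 2-fold increase in the shIKKE line and 6 in the control line, with no such decrease in either, beside 10.3% and 7.57% of all genes. Counting both directions, 4 were changed in the shIKKE line and 8 in the control line after quantile normalization and likewise after median centring, and 3 and 2 with a pseudocount of 100. The medians were 0.96 and 0.37, against -0.01 and -0.07 over all genes. SEMA7A, a membrane semaphorin, read 1256 with stimulation and 184 with solvent in the shIKKE line, against 1346 and 561 in the control line, with a lower solvent reading in the shIKKE line as for CD69. A dimmer SEMA7A probe set did not have this, with solvent readings of 14.5 and 10.0 and log2 differences of 1.58 and 2.28 in the shIKKE and control lines. ICOS, a costimulatory receptor, read 356 and 46.4 in the shIKKE line, against 83.2 and 174 in the control line. SLAMF1 read 112 and 31.4 in the shIKKE line, against 87.0 and 21.7 in the control line. Its dimmer probe sets gave log2 differences of 1.80 and -0.22 in the shIKKE line and 0.23 and 0.13 in the control line. IL2RA, the alpha chain of the interleukin 2 receptor, read 109 and 45.4 in the shIKKE line, against 95.6 and 26.5 in the control line. Its other probe set read 146 and 19.3 in the shIKKE line, against 67.2 and 41.8 in the control line, which is within 2-fold in the control line (log2 2.26 and 0.54). By the probe set used for each gene, the largest increases among these 14 genes were 2.68 in the shIKKE line (SEMA7A) and 1.80 in the control line (TNFRSF4). These depend on the probe set. The dimmer SEMA7A one reached 2.28 in the control line, and a dimmer TNFRSF4 one gave 0.10 and -0.23 in the shIKKE and control lines.

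**Figure D5:**
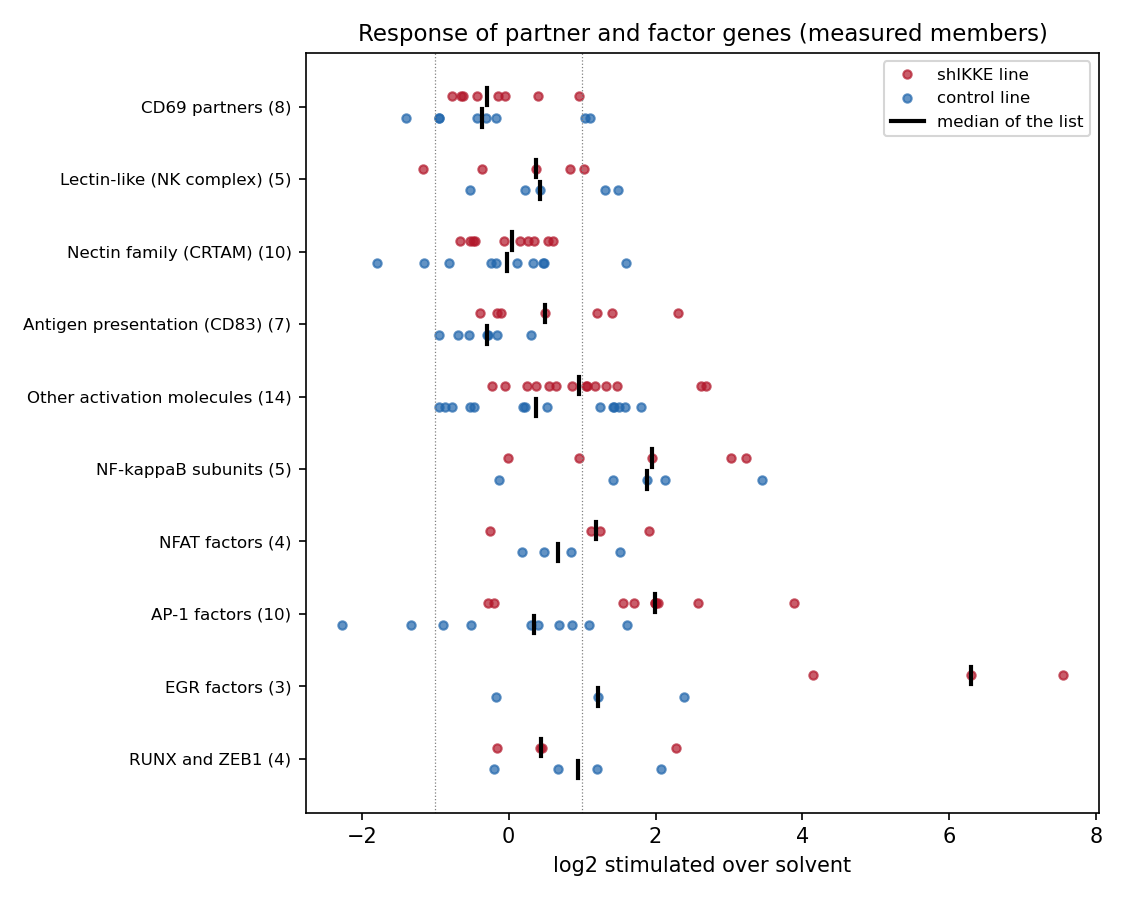
Log2 difference of stimulated over solvent for the measured members of each list (number in brackets), with the shIKKE line (red) above the control line (blue), a black bar at the median of the list and dotted lines at 2-fold. NF-κB subunits have medians of 1.96 and 1.88 in the shIKKE and control lines and AP-1 factors 1.99 and 0.35, while the nectin family lies near 0.04 and -0.03.

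Markers of other cell types that carry these proteins were looked at on the same arrays. Of 9 NK cell markers 3 were measured, with a summed signal of 477 and 475 on the stimulated arrays of the shIKKE and control lines, against 316 and 383 on their solvent arrays. NKG7 read 280 and 269 with stimulation and 259 and 326 with solvent, in the same order of lines. NCR3 read 115 and 137 with stimulation and 38.4 and 5.9 with solvent, and NCAM1 81.5 and 69.4, then 18.9 and 51.3. Dimmer probe sets of NCR3 were also higher with stimulation in both lines, and those of NCAM1 went both ways. Among markers below the filter, GNLY and KIR2DL1 read at most 10.7 and 10.0. Of 9 dendritic and myeloid markers 6 were measured, with sums of 4258 and 7908 with stimulation and 4933 and 8840 with solvent, in the same order of lines. CD14 and ITGAX read at most 8.1 and 27.5. Of 7 B cell markers 4 were measured, with sums of 623 and 896 with stimulation and 528 and 1344 with solvent. The lower B cell sums of the shIKKE line rest on CR2 (45.4 against 391 with stimulation, 74.0 against 962 with solvent), while CD79A was the other way round (408 against 345, and 338 against 223). The lower dendritic sums rest mostly on CD1A and CD1C, and LAMP3 read 2138 against 2311 with stimulation and 2354 against 2660 with solvent. The part of these markers in the values above was not tested.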

How the data were processed

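The 4 groups of Jurkat cells had 1 single-colour array each, with biotin-labelled RNA. The deposited intensity of each probe set is a MAS5 signal, per the submitters' processing notes, and its version is not given in the sources used here. Each array had a trimmed mean (2% off each end) of 500.1. Groups came from the sample titles.

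Of 54675 probe sets 41091 had 1 gene symbol, 1801 several and 11783 none, counting 62 array controls among the last. Of the first, 41037 matched the RefSeq table of GRCh38.p14 by gene ID. Values are log2 of the signal plus 14.1, the 25th percentile of all signals. Probe sets reaching 56.4, the median of all signals, on any array were kept, and each gene was represented by its brightest. A call is a 2-fold difference. No test was run: with 1 array per group, the 1 residual degree of freedom of an additive model is the difference of the lines' responses, which took part in the choice of CRTAM. The differences were checked on simulated data with known changes, equal in both lines, in bright genes and with little noise. That checks the calculation only, not dim readings, real array noise or responses that differ between the lines.

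Named genes were the 3 activation markers, up to 4 genes per list with the largest change in a comparison, the 5 nearest in course, the chromosomal neighbours and IKBKE. SCRIB, MARCHF8, RELA, JUN, LAMP3 and genes below the filter were named outside this rule, after their values were seen. The genes, lists and rules were chosen with earlier results of these data known. Alternatives were pseudocounts of 1 and 100, quantile normalization, median centring, no filter, a median over the probe sets of a gene and the other line's solvent array as baseline. Python 3.11.15, pandas 2.3.3, numpy 2.4.6, scipy 1.17.1 and matplotlib 3.10.9 were used.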

Additional observations from a re-analysis of the deposited data

Results flagged for a closer look

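Of 128 genes looked at (the activation markers, measured list members, nearest genes and neighbours), 3 changed at least 2-fold in opposite directions in the lines, and none of these differences was tested. FOSB, an AP-1 factor, read 302 with stimulation and 7.4 with solvent in the shIKKE line, against 272 and 1364 in the control line, a difference of the log2 responses of 6.15. ATF3, another factor of that family, read 1110 and 329 in the shIKKE line, against 548 and 1407 in the control line, a difference of 3.05. Its 2 dimmer probe sets gave 0.19 and 0.28. CLEC12A, a lectin-like receptor gene near CD69, read 25.8 and 75.1 in the shIKKE line, against 38.2 and 4.6 in the control line, a difference of -2.64. Its 2 dimmer probe sets gave -0.75 and -0.18.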

How the results depend on the processing

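Of 72 values of the activation markers under other settings none changed sign past 2-fold, and 62 kept their 2-fold call and stayed within 1.5 times. The responses of CRTAM in the shIKKE and control lines were 7.35 and 7.47 with a pseudocount of 1, and 4.71 and 4.71 with one of 100. With the solvent reading raised to the array median, a setting chosen after seeing the data, they were 5.55 and 5.55. With the solvent array of the other line as baseline, the responses in the shIKKE and control lines were 3.81 and 5.07 for CD69 and 2.99 and 3.52 for CD83; that baseline adds the difference between the lines. The response difference of CD83 stayed under 2-fold, at log2 0.91 or more, under the 4 settings of pseudocount and scaling. Median centring put the median of all genes with stimulation at -0.24 in the shIKKE line and -0.21 in the control line, against -0.01 and -0.07.

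Counts over all genes moved by over 1.5 times in 22 of 60 cases, which changes the percentages set beside the markers. Without a filter, where 19775 genes are counted, 2200 and 1648 genes were higher and 796 and 1380 lower with stimulation in the shIKKE and control lines, against 1417, 1039, 368 and 884. With a pseudocount of 100 these were 398, 406, 67 and 305. In the shIKKE line 688 were lower after quantile normalization and 687 after median centring. For the shIKKE over the control line with stimulation, 1560 higher and 704 lower without a filter and 81 and 54 with a pseudocount of 100 compare with 822 and 325. With solvent, 1235 and 1458 and then 124 and 268 compare with 596 and 916. For the difference of responses, 2662 and 1419 and then 452 and 166 compare with 1559 and 641. Counts of listed genes moved by as much in 43 of 300 cases. No paired analysis was possible because the groups share fewer than 2 replicate numbers; the within-line differences are those of the report. The number of arrays limits all values.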

Other observations

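CD1A and CD1C were bright in these Jurkat cells and lower in the shIKKE line. They belong to the CD1 family, which presents lipids to T cells and is known from dendritic cells and cortical thymocytes. CD1A read 941 in the shIKKE line and 2616 in the control line with stimulation, and 1247 and 3067 with solvent. CD1C read 1026 and 2933 with stimulation, and 1241 and 2921 with solvent. Stimulation moved both by less than 2-fold in either line. LAMP3, a marker of mature dendritic cells like CD83, read 2138 and 2311 with stimulation and 2354 and 2660 with solvent in the shIKKE and control lines, so it was bright on all 4 arrays without the increase seen for CD83. CR2, a complement receptor of B cells, read 45.4 and 391 with stimulation and 74.0 and 962 with solvent in the same order of lines.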
